A study of Mus musculus with 12 samples.

Results

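The accessibility of chromatin at the other genes of the Ikaros family was examined in Treg that carried or lacked Ikaros. The genes were Ikzf2 (Helios), Ikzf3 (Aiolos), Ikzf4 (Eos) and Ikzf5. All open chromatin regions that overlapped the body of one of these genes, extended by 20 kb on each side, were taken, which gave 105 of the 118680 regions measured in the series. Ikzf2 held 64 of them, Ikzf3 held 28, Ikzf4 held 10 and Ikzf5 held 3. The choice used position alone and no measured value.

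Ikaros family proteins are zinc finger transcription factors that pair with each other through C-terminal fingers. Ikaros, Helios, Aiolos and Eos bind DNA through N-terminal fingers and recognise a core of GGGAA. Ikaros and Aiolos are known in lymphocytes for both repression and activation, and recruit the NuRD remodelling and deacetylase complex, Sin3 and CtBP. Helios is abundant in most thymus-derived Treg and is linked to the stability of the lineage, and Eos is known as a partner of Foxp3 in gene silencing. Ikzf5 (Pegasus) is a more divergent member that is expressed in many tissues.

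The assay was ATAC-seq, which reads where the transposase Tn5 can reach DNA. Spleen Treg were sorted on YFP. WT Treg came from Foxp3-YFP-Cre animals and Ikzf1-cko Treg from Ikzf1-fl-Foxp3-YFP-Cre animals, so that both genotypes carried the Cre and YFP driven by Foxp3, and the floxed Ikzf1 alleles were deleted only in cells that express Foxp3. The cells were lysed directly (ex vivo) or after 4 hr on plate-bound anti-CD3 and anti-CD28 (stimulated). Per the methods, sorted cells were divided between these treatments, so that ex vivo and stimulated libraries of a genotype can hold cells of the same sorts. Each of the 4 groups had 3 libraries of 100000 cells, described in the methods as biological replicates, and the labels do not say which libraries came from separate mice, so that p-values measure the spread between these libraries. The age of these mice is not given in the sources used here. Between 4808916 and 15355521 reads were counted in a library. Every Ikzf1-cko library was deeper than every WT library, so that low counts were less precise in WT and depth and genotype cannot be told apart. Over all regions at Ikzf1 itself the summed level was 349 ± 18.1 CPM (reads per 1000000 counted reads) in ex vivo WT Treg and 327 ± 24.7 in ex vivo Ikzf1-cko Treg (SD, n = 3), a sum that does not check the genotype labels.

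Start-site regions of Cd3e, Cd4, Foxp3, Il2ra and Ctla4 were present and together reached 84.2 to 111 FPKM in the libraries. Of 14 markers of CD8 T cells, B cells, myeloid, NK and erythroid cells, 7 had no region at their start or in their body, among them Ms4a1, Lyz2, Spi1, Ncr1 and Hbb-b1. The other 7 together reached 58.9 to 70.1 FPKM in ex vivo WT, 48.5 to 56.7 in ex vivo Ikzf1-cko, 66.1 to 72.9 in stimulated WT and 53.9 to 63.3 in stimulated Ikzf1-cko Treg. These 7 included the B cell genes Pax5, with a region in its body, and Ebf1, with one at its start. Their means in ex vivo WT Treg were 13.1 and 14.1 FPKM, beside 6.7 FPKM at the Foxp3 start. The start regions of Cd8a and Cd8b1 moved with genotype, at 20.7 to 24.2 FPKM in ex vivo WT against 10.8 to 14.6 in ex vivo Ikzf1-cko Treg and at 20 to 23.4 against 14.7 to 16.1 after stimulation. The summed level at regions in the bodies of the myeloid genes Csf1r and Itgam moved with stimulation in WT Treg. It was 7.9 to 14.8 FPKM ex vivo and 15.8 to 21.6 after stimulation, without overlap, against 8.1 to 12.5 and 8.93 to 19.4 in Ikzf1-cko Treg. The rise in WT Treg was at Csf1r, with a mean of 5.7 and then 13.3 FPKM, whereas Itgam went from 5.83 to 4.98 FPKM. The part of these values in the comparisons of genotype and of stimulation was not tested. One library stood apart at the regions described here, since stimulated WT replicate 2 had the highest value of its group in 75 of the 105 regions, and values without it are given after those of the 4 genes.

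Levels are given as FPKM, the reads on a region divided by its length and by the total counted reads of the library. Because each library is a bulk of cells, a lower level in fewer cells and in every cell cannot be told apart. The read counts of all 12 libraries were fitted with edgeR (quasi-likelihood test), and p-values were adjusted by Benjamini-Hochberg over 69957 tested regions. A region was called where the adjusted p was under 0.05 and the log2 fold change was over 1 in size, the thresholds of the study. Regions entered the test where 3 or more libraries reached 3.6 CPM, as 75 of the 105 did. These were 49 at Ikzf2, 16 at Ikzf3, 7 at Ikzf4 and 3 at Ikzf5. The 30 others were weak regions, with mean levels of up to 13.9 FPKM, 15 at Ikzf2, 12 at Ikzf3 and 3 at Ikzf4. Of the 75, 14 had all 3 libraries over that level in no more than 1 group.

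The calls in the family numbered 1 to 3 in each comparison. Between genotypes, 1 of 75 was called ex vivo, against 4.63% of all tested regions in the series, and 2 of 75 were called after stimulation, against 21.3% of all. With stimulation, 3 of 75 were called in WT Treg, against 20% of all, and 1 of 75 in Ikzf1-cko Treg, against 3.65% of all. The response to stimulation differed by genotype (an interaction term) at 1 of 75 regions, against 1.98% of all. The series-wide shares that involve stimulated WT Treg depended on the fit. With loess offsets, a scaling that removes trends of fold change with abundance, 5.97% of all were called between stimulated genotypes and 6.05% with stimulation in WT Treg, beside 1 and 4 of 75. Without stimulated WT replicate 1, 2 or 3 the shares of all were 9.16%, 11.8% and 10.1% between stimulated genotypes and 7.53%, 10.8% and 8.86% with stimulation in WT Treg. With the filter met in all 12 libraries they were 2.50% and 3.62% of 34257 regions, beside 1 and 1 of 42. The calls with library totals as the scale fell on 4 regions, 2 in introns of Ikzf2, 1 downstream of Ikzf3 and 1 downstream of Ikzf5.

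The sequences of 3 of these regions are shown because the calls at Ikzf2 and Ikzf5 rest on them. The central 300 bases are given on the plus strand of mm9, in lower case, with each GGGAA or its reverse complement TTCCC in capitals.
OCR_2479, intron 6 of Ikzf2, chr1:69590730-69591029: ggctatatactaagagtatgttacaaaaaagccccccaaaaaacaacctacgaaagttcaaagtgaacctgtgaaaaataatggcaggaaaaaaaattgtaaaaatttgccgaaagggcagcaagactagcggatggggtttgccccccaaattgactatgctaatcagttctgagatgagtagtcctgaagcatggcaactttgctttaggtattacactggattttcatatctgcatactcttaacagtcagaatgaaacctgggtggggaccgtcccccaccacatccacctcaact
OCR_2517, intron 3 of Ikzf2, chr1:69709381-69709680: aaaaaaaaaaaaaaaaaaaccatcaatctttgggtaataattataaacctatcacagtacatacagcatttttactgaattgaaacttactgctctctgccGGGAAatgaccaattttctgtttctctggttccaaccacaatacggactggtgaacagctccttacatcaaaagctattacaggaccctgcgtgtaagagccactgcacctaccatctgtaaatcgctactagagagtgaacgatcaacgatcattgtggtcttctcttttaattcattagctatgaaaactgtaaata
OCR_104427, downstream of Ikzf5, chr7:138515433-138515732: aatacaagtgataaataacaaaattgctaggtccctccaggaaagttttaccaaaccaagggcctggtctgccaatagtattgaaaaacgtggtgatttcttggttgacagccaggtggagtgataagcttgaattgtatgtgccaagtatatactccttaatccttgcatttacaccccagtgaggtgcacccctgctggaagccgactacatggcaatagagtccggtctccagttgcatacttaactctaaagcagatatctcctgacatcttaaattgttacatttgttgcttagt
The window of OCR_2517 held 1 match, whereas those of OCR_2479 and OCR_104427 held none. A match is a description of the letters and does not show that a factor bound there.

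Ikzf2 lies on the minus strand of chromosome 1 (mm9, chr1:69577788-69732534) and spans 154.7 kb with 8 exons. Of its 64 regions 51 were intronic, 6 overlapped an exon, 5 lay upstream and 2 downstream. Intron 3, of 105.2 kb, alone held 42. No region covered the annotated start, and the nearest, OCR_2531 (chr1:69733502-69734576), lay 1.5 kb upstream of it. Mean levels over the 12 libraries ranged from 5.17 to 40.5 FPKM across the 64 regions, and 53 of them were above the median region of the series.

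**Figure D1:**
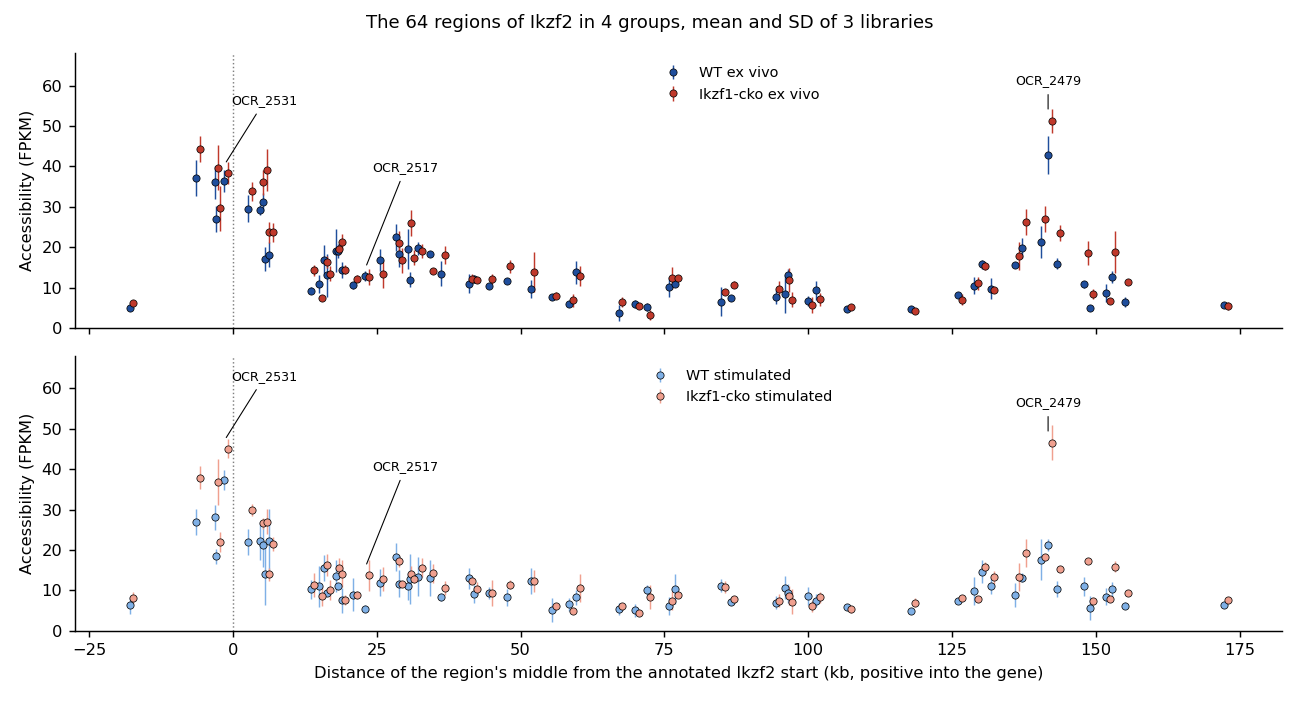
Accessibility of the 64 Ikzf2 regions (FPKM, vertical axis) against the distance of each region's middle from the annotated start (kb, horizontal axis, positive into the gene), with points for group means and bars for the SD of 3 libraries. The highest levels lay within about 10 kb of the start and near the other end of the gene, where OCR_2479 stood at 21.3 FPKM in stimulated WT and at 42.8 to 51.3 FPKM in the other 3 groups. Ikzf1-cko points are shifted by 0.6 kb to the right so that both can be seen.

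OCR_2479 (chr1:69590538-69591221, intron 6, 141.7 kb from the start) was the most accessible Ikzf2 region. Its level in WT Treg was 38.0, 43.2 and 47.3 FPKM ex vivo and 23.0, 20 and 21.0 FPKM after stimulation. Ikzf1-cko Treg had 51.6, 54.1 and 48.2 FPKM ex vivo and 45.7, 42.7 and 51.3 FPKM after stimulation. The stimulated WT libraries thus lay below all 9 others without overlap. Stimulation lowered the level of this region 2.02-fold in WT Treg (log2 fold change -1.02, SE 0.12, adjusted p = 1.4e-07). In Ikzf1-cko Treg the log2 fold change was -0.14 (SE 0.09, adjusted p = 0.27). The difference between these responses was 0.88 on the log2 scale (SE 0.15, adjusted p = 7.0e-04), which passed the threshold on p and not the one on fold. In stimulated Treg the region was 2.18-fold higher in Ikzf1-cko than in WT (log2 fold change 1.12, SE 0.12, adjusted p = 2.5e-08), a comparison that shares the stimulated WT libraries with those of stimulation in WT and of the difference between responses. Its ex vivo value, 0.25 higher on the log2 scale in Ikzf1-cko Treg, did not pass (SE 0.10, adjusted p = 0.060). The call for stimulation in WT fell short on fold without ex vivo WT replicate 3 (-0.93) and without stimulated WT replicate 2 (-0.97), each with an adjusted p of 8.2e-06 or less, and with limma (-0.95). Both calls did so with loess offsets (0.84 between genotypes and -0.78 with stimulation).

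OCR_2517 (chr1:69709365-69709696, intron 3, 23.0 kb from the start) was a weaker region with the same lowest group, stimulated WT Treg. In WT Treg it had 12.8, 11.6 and 14.0 FPKM ex vivo and 5.98, 6.05 and 4.38 FPKM after stimulation. The levels in Ikzf1-cko Treg were 14.9, 11.2 and 11.8 FPKM ex vivo and 10.4, 17.8 and 12.9 FPKM after stimulation. The stimulated WT libraries again lay below all others, on 7 to 12 reads each, against 22 to 76 reads in the other libraries. Of the 8 libraries that reached 3.6 CPM and brought the region into the test, none was stimulated WT. The level fell 2.31-fold with stimulation in WT (log2 fold change -1.21, SE 0.30, adjusted p = 0.0017), and the corresponding value in Ikzf1-cko Treg was 0.11 (SE 0.21, adjusted p = 0.73). Stimulated Ikzf1-cko Treg had a 2.47-fold higher level than stimulated WT Treg (log2 fold change 1.30, SE 0.29, adjusted p = 4.0e-04), whereas the ex vivo value was -0.01 (SE 0.22, adjusted p = 0.97). The responses differed by 1.32 on the log2 scale (SE 0.37, adjusted p = 0.025), the one interaction called in the family. That call was lost in 4 of the 12 fits that left out a library, those without ex vivo WT replicate 3 (adjusted p = 0.086), stimulated WT replicate 1 (0.052), stimulated WT replicate 3 (0.068) or stimulated Ikzf1-cko replicate 2 (0.088), and with DESeq2 (0.092) or with counts thinned to the smallest library (0.075). The calls of OCR_2479 and OCR_2517 between stimulated genotypes held with counts thinned to the total of the smallest library. With limma all 3 calls of OCR_2517 fell short on fold, at -0.90, 0.96 and 0.98.

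**Figure D2:**
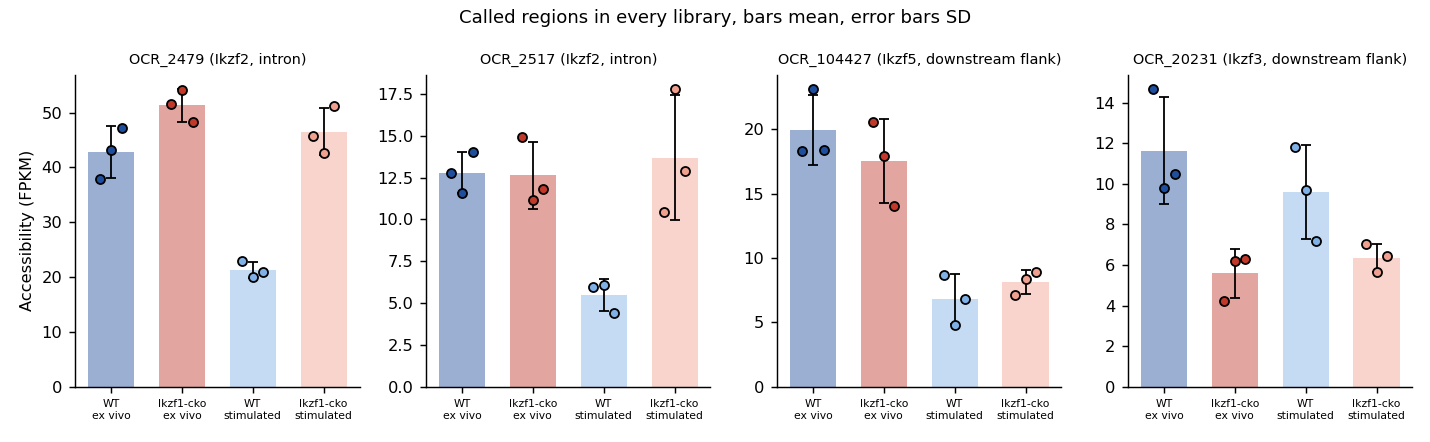
Accessibility (FPKM, vertical axis from 0) of the 4 called regions in every library of the 4 groups, with bars for the mean, error bars for the SD and points for the 3 libraries. At OCR_2479 and OCR_2517 the stimulated WT points lie below all others, at OCR_104427 the stimulated points of both genotypes (4.81 to 8.89 FPKM) lie below all ex vivo points (14.1 to 23.1 FPKM), and at OCR_20231 the Ikzf1-cko points (4.21 to 7.01 FPKM) lie below the WT points (7.20 to 14.7 FPKM).

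Without the threshold on fold, more of Ikzf2 moved, always by less than 2-fold outside the called regions. Ex vivo, 7 of the 49 tested Ikzf2 regions (14.3%) were higher in Ikzf1-cko Treg, by 0.40 to 0.76 on the log2 scale, against 8.78% of all tested regions, and 0 were lower, against 12.7% of all. After stimulation 11 were higher (22.4%), against 20.4% of all, and 0 were lower, against 30.7% of all. In these counts, no Ikzf2 region was lower in Ikzf1-cko Treg with TMM factors, DESeq2 size factors or loess offsets as the scaling either. Their counts of higher regions were 12 to 13 ex vivo, against 8.65% to 14.4% of all, and 8 to 13 after stimulation, against 14.5% to 25.2% of all. The share of all regions that were lower after stimulation was itself 13.7% with loess offsets and 14.9% without stimulated WT replicate 1. With the filter met in all 12 libraries that share was 9.86%, and 36.7% of all were higher. Of 22 Ikzf2 regions 8 were then higher, a share near that of the series, and 0 were lower. Ex vivo this filter gave 7 of 22 higher, against 16.0% of all, and 0 lower, against 11.5% of all. The median log2 fold change of the tested Ikzf2 regions was 0.14 ex vivo and 0.18 after stimulation, beside -0.13 and -0.11 over all tested regions, and it was 0.16 and 0.17 over all 64 without the filter, beside -0.25 and -0.37 over all regions. TMM scaling moved the ex vivo median of all tested regions to -0.02. With the filter met in all 12 libraries the medians of all tested regions were 0.04 ex vivo and 0.18 after stimulation. Fits that left out 1 library gave 3 to 13 higher regions ex vivo. The fewest were 3 of 49 without ex vivo Ikzf1-cko replicate 2, against 5.3% of all. Without ex vivo WT replicate 2 or ex vivo Ikzf1-cko replicate 1 there were 4 of 47 and 4 of 49, against 5.58% and 6.23% of all. The most were 13 of 48 without ex vivo Ikzf1-cko replicate 3, against 10.7% of all. After stimulation these fits gave 4 to 14. The fewest were 4 of 49 without stimulated WT replicate 1, below the 18.2% of all. The most were 14 of 47 without stimulated WT replicate 2, against 23.1% of all.

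The ex vivo and stimulated genotype comparisons share no library, although the cells can come from the same sorts, and 6 regions were higher in both. This was 85.7% of the 7 and 54.5% of the 11, beside 74.1% and 32.0% for the regions of the whole series that were higher ex vivo and after stimulation. Beyond 130 kb from the start, a boundary not planned and set with the values known, lay 13 of the 64 regions, of which 11 were tested. There 5 of the 7 ex vivo regions and 6 of the 11 after stimulation were found, at 137.2 to 155.0 kb. Of all tested regions of the series 8.78% were higher ex vivo and 20.4% after stimulation. The position of these regions along the gene was not tested. The smallest p ex vivo belonged to OCR_2477 (chr1:69584197-69584821), in exon 8. In ex vivo Treg it had 9.85, 11.2 and 11.5 FPKM in WT and 17.3, 22.0 and 16.4 FPKM in Ikzf1-cko libraries, without overlap, and was 1.69-fold higher in the latter (log2 fold change 0.76, SE 0.16, adjusted p = 8.5e-04). After stimulation it had 8.47, 12.9 and 11.7 FPKM in WT and 17.9, 17.4 and 16.6 FPKM in Ikzf1-cko libraries (log2 fold change 0.66, SE 0.17, adjusted p = 0.0021). The log2 fold change of OCR_2477 with stimulation was -0.01 in WT and -0.11 in Ikzf1-cko Treg, neither past the threshold (adjusted p = 0.97 and 0.60).

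The other 5 regions that were higher in Ikzf1-cko Treg in both comparisons are described although their values were seen before they were named. OCR_2473 (chr1:69577188-69577785), just past the 3′ end of the gene, had 5.15, 7.31 and 7.20 FPKM in WT and 10.7, 12.3 and 11.2 FPKM in Ikzf1-cko libraries ex vivo (log2 fold change 0.76, SE 0.18, adjusted p = 0.0036). After stimulation it had 5.81, 7.33 and 5.56 FPKM in WT and 8.70, 9.70 and 9.92 FPKM in Ikzf1-cko libraries (log2 fold change 0.60, SE 0.21, adjusted p = 0.019). The groups did not overlap in either state, and stimulation passed in neither genotype. OCR_2474 (chr1:69579554-69579991), in exon 8 like OCR_2477, was 1.48-fold higher ex vivo, where the groups overlapped, and 1.55-fold higher after stimulation (adjusted p = 0.032 and 0.020).

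At the remaining 3, the difference between genotypes came with a fall on stimulation in both. OCR_2478 (chr1:69589113-69589546), an intronic region 143.2 kb from the start, had 15.5, 15 and 17.4 FPKM in ex vivo WT and 23.9, 25.3 and 21.3 FPKM in ex vivo Ikzf1-cko Treg. After stimulation it had 8, 11.8 and 11 FPKM in WT and 15.7, 15.5 and 14.9 FPKM in Ikzf1-cko Treg. Each of its 4 pairs of groups was apart without overlap, with log2 fold changes of 0.55 and 0.59 between genotypes (adjusted p = 0.0097 and 0.012) and of -0.66 and -0.62 with stimulation in WT and Ikzf1-cko Treg (adjusted p = 0.0085 and 0.0020). OCR_2481 (chr1:69595028-69595728, exon 6) and OCR_2505 (chr1:69684414-69685403, intron 3) had the same order of means, with log2 fold changes of 0.42 and 0.40 between genotypes ex vivo and 0.55 and 0.50 after stimulation. Stimulation changed OCR_2481 by -0.59 in WT and -0.46 in Ikzf1-cko Treg, and OCR_2505 by -0.51 and -0.42. At none of these 5 regions did the interaction pass (adjusted p of 0.73 or more).

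Stimulation lowered part of the Ikzf2 locus in both genotypes. In WT Treg 17 of 49 regions were lower (34.7%), against 20.7% of all tested regions, and 0 were higher, against 26.9% of all. In Ikzf1-cko Treg 12 were lower (24.5%), against 11.5% of all, and 2 were higher, against 12% of all. These comparisons too share no library but can share sorts, and 9 regions were lower in both, 52.9% of the 17 and 75.0% of the 12, beside 38.9% and 70.1% for the whole series. Intron 3 held 11 of the 17 and 9 of the 12. The smallest p in Ikzf1-cko Treg was at OCR_2513 (chr1:69702035-69702326, intron 3), with 27.4, 28.1 and 22.2 FPKM ex vivo and 14.1, 16.0 and 12.2 FPKM after stimulation (log2 fold change -0.89, SE 0.18, adjusted p = 6.6e-04). In WT Treg the same region had 13.8, 23.1 and 21.5 FPKM ex vivo and 10.8, 14.4 and 7.83 FPKM after stimulation, groups that overlapped (log2 fold change -0.85, SE 0.25, adjusted p = 0.0061). The count in WT Treg fell to 5 of 49 without stimulated WT replicate 1, against 18.3% of all, a share below that of the series. It was 8 of 48 without ex vivo WT replicate 3 and 11 of 49 without stimulated WT replicate 3. These were near the shares of all, 16.5% and 20.5%, so the excess over the series depended on single libraries. Without stimulated WT replicate 2 it was 16 of 47, against 22.6% of all. In Ikzf1-cko Treg the count was 7 of 49 without ex vivo Ikzf1-cko replicate 2, stimulated Ikzf1-cko replicate 1 or stimulated Ikzf1-cko replicate 3. The shares of all were then 8.51%, 8.64% and 8.89%. With the filter met in all 12 libraries 10 of 22 Ikzf2 regions were lower in WT Treg, against 35.7% of all. In Ikzf1-cko Treg 8 of 22 were then lower, against 20.5% of all. The regions higher with stimulation were 0 and 2 of 22, against 10.7% and 14.5% of all, so the contrast with the series was smaller under this filter. With genotype as a modifier, 2 Ikzf2 regions (OCR_2479 and OCR_2517) had a higher interaction value, against 5.66% of all, and 0 a lower one, against 1.82% of all.

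The region nearest to the Ikzf2 start was not among those that stimulation lowered. OCR_2531 had 35.1, 34.8 and 39.5 FPKM in ex vivo WT, 38.6, 41.0 and 35.5 in ex vivo Ikzf1-cko, 35.8, 40.3 and 35.8 in stimulated WT and 42.7, 45.2 and 47.3 in stimulated Ikzf1-cko Treg. The stimulated Ikzf1-cko libraries were above all others. The region was 1.21-fold higher in stimulated Ikzf1-cko than in stimulated WT Treg (log2 fold change 0.27, SE 0.09, adjusted p = 0.011) and 1.17-fold higher than in ex vivo Ikzf1-cko Treg (log2 fold change 0.23, SE 0.08, adjusted p = 0.032). With loess offsets the value between genotypes after stimulation turned to -0.07 (adjusted p = 0.55), so its direction depended on the scaling, and stimulation in WT Treg then passed at 0.28 (adjusted p = 0.0088). With library totals, neither the ex vivo genotype comparison (0.07) nor stimulation in WT Treg (0.03) passed (adjusted p = 0.57 and 0.83).

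**Figure D3:**
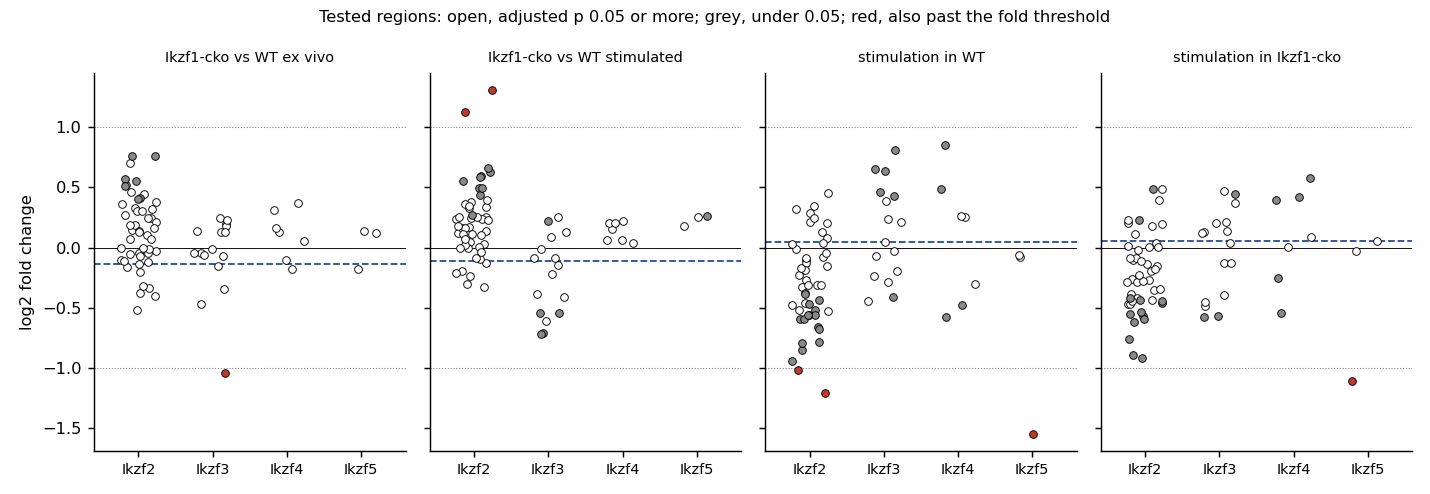
The log2 fold change (vertical axis) of each tested region of the 4 genes in 4 comparisons, from edgeR's quasi-likelihood test; open points had an adjusted p of 0.05 or more, grey points one under 0.05, and red points were also past a log2 fold change of 1 in size. The dashed line is the median of all tested regions of the series (-0.13, -0.11, 0.04 and 0.06 from left to right); Ikzf2 points sit mostly above it between genotypes and mostly below it with stimulation.

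Ikzf3 encodes Aiolos, the closest relative of Ikaros, and lies on chromosome 11 (mm9, chr11:98326216-98407345, minus strand, 81.1 kb). Of its 28 regions, 12 were intronic, 3 overlapped other exons, 3 covered annotated starts, 8 lay downstream and 2 upstream. The region over the start of the longest transcript, OCR_20255 (chr11:98406951-98407501), had 13.3, 16.1 and 18.2 FPKM in ex vivo WT and 17.6, 17 and 18.3 FPKM in ex vivo Ikzf1-cko Treg, which overlapped. After stimulation it had 21.0, 21.9 and 22.3 FPKM in WT and 23.8, 20.1 and 17.9 FPKM in Ikzf1-cko Treg. It was 1.34-fold higher with stimulation in WT (log2 fold change 0.43, SE 0.16, adjusted p = 0.030), did not pass in Ikzf1-cko Treg (0.22, adjusted p = 0.24), and the responses were not shown to differ (interaction -0.21, SE 0.21, adjusted p = 0.57). The regions over starts of shorter transcripts, OCR_20240 (chr11:98338080-98339216) and OCR_20244 (chr11:98350066-98350588), ranged from 6.41 to 12.1 and from 5.57 to 14.0 FPKM over the 12 libraries and passed no test (adjusted p of 0.20 or more in the 5 comparisons). The most accessible region within 20 kb, OCR_20256 (chr11:98411131-98412998, 22.8 to 30.9 FPKM), covers the start of the neighbouring gene Zpbp2.

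The called Ikzf3 region, OCR_20231 (chr11:98306998-98307430), lies 99.9 kb from the start, past the 3′ end of the gene. Ex vivo it had 14.7, 9.79 and 10.5 FPKM in WT and 4.21, 6.21 and 6.32 FPKM in Ikzf1-cko Treg, on 32 to 39 and 28 to 37 reads. It was 2.06-fold lower in Ikzf1-cko Treg (log2 fold change -1.04, SE 0.25, adjusted p = 0.0036). The region entered the test only through WT libraries, where it is higher, since the 5 libraries that reached 3.6 CPM were all WT. After stimulation the levels were 11.8, 9.70 and 7.20 FPKM in WT and 7.01, 5.64 and 6.45 FPKM in Ikzf1-cko Treg, which did not overlap and did not pass the test (log2 fold change -0.61, SE 0.28, adjusted p = 0.066). The call ex vivo was just past the fold threshold and did not hold with TMM factors (-0.92), DESeq2 (-0.96), DESeq2 size factors (-0.95), limma (-0.82) or loess offsets (-0.71), nor without ex vivo WT replicate 1 (-0.87) or ex vivo Ikzf1-cko replicate 1 (-0.86), and with thinned counts the adjusted p was 0.075.

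Without the threshold on fold, after stimulation 4 of 16 were lower in Ikzf1-cko than in WT Treg, against 30.7% of all, and 1 was higher, against 20.4% of all. With stimulation in WT Treg 5 of 16 were higher, by 0.43 to 0.81 on the log2 scale, against 26.9% of all, and 1 was lower, against 20.7% of all. Of the rises, 0 passed without stimulated WT replicate 2, 2 without stimulated WT replicate 1 or ex vivo WT replicate 2, 3 without ex vivo WT replicate 3 and 1 with DESeq2. Of the lower values between stimulated genotypes, 1 passed without stimulated WT replicate 2, without stimulated Ikzf1-cko replicate 3, with DESeq2 or with DESeq2 size factors, and 2 with TMM factors, loess offsets or thinned counts. The smallest p between stimulated genotypes and for the interaction was at OCR_20233 (chr11:98311273-98312267), in the body of the neighbouring gene Grb7. Its level was 6.38, 7.86 and 5.96 FPKM in ex vivo WT and 11, 9.36 and 5.64 FPKM in stimulated WT Treg. Ikzf1-cko Treg had 9.23, 8.40 and 6.18 FPKM ex vivo and 5.45, 5.93 and 4.82 FPKM after stimulation. Between stimulated genotypes it was lower in Ikzf1-cko Treg (log2 fold change -0.71, SE 0.21, adjusted p = 0.0051). Stimulation lowered it in Ikzf1-cko Treg (log2 fold change -0.57, SE 0.18, adjusted p = 0.021), the value in WT was 0.39 (SE 0.21, adjusted p = 0.14), and the responses differed by -0.96 (SE 0.28, adjusted p = 0.032). The adjusted p of this difference was no longer under the threshold in 6 of the 12 fits that left out a library, those without ex vivo WT replicate 3 (0.12), ex vivo Ikzf1-cko replicate 1 (0.059) or 2 (0.052), stimulated WT replicate 1 (0.15) or 2 (0.050) and stimulated Ikzf1-cko replicate 3 (0.11). The same held with DESeq2 (0.11), thinned counts (0.13), limma (0.052) and no filter (0.053).

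The Ikzf3 regions with the smallest p for stimulation moved in the same direction in both genotypes. OCR_20234 (chr11:98318518-98319843), 87.9 kb from the start, rose from 18.9, 17.9 and 17.8 to 24.2, 30.6 and 19.6 FPKM in WT Treg (log2 fold change 0.46, SE 0.12, adjusted p = 0.0025). The rise in Ikzf1-cko Treg was from 16.3, 19.0 and 16.6 to 22.8, 24.2 and 23.5 FPKM (log2 fold change 0.45, SE 0.10, adjusted p = 0.0020). OCR_20239 (chr11:98331113-98332350, intron 7) fell from 21.1, 22.7 and 21.8 to 14.4, 19.5 and 15.6 FPKM in WT Treg (log2 fold change -0.41, SE 0.12, adjusted p = 0.0047). The fall in Ikzf1-cko Treg was from 25.2, 23.9 and 23.4 to 17.3, 14.8 and 17.1 FPKM (log2 fold change -0.56, SE 0.10, adjusted p = 7.7e-05). Ex vivo and stimulated libraries did not overlap at either region within a genotype.

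Ikzf4 encodes Eos and is short (mm9, chr10:128067899-128083047, minus strand, 15.1 kb). Of its 10 regions 1 covered the start, 1 an exon and 1 lay in an intron, with 3 upstream and 4 downstream, and none was called. The most accessible region of the whole family, OCR_15850 (chr10:128073655-128074580), overlaps exon 6, 8.9 kb from the start. It had 69.2, 63.5 and 70.8 FPKM in ex vivo WT and 59.4, 68.4 and 52.1 FPKM in ex vivo Ikzf1-cko Treg. After stimulation it had 40.0, 54.3 and 42.0 FPKM in WT and 53.0, 46.0 and 52.2 FPKM in Ikzf1-cko Treg. In WT Treg the ex vivo and stimulated libraries did not overlap, and the level fell 1.49-fold (log2 fold change -0.58, SE 0.11, adjusted p = 7.4e-05). In Ikzf1-cko Treg the groups overlapped and the change was 1.19-fold (log2 fold change -0.25, SE 0.09, adjusted p = 0.046). The responses were not shown to differ (0.33, SE 0.14, adjusted p = 0.15).

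At the Ikzf4 start the rise with stimulation passed in Ikzf1-cko Treg, and the responses of the genotypes were not shown to differ. OCR_15852 (chr10:128082073-128083102), which also covers the start of Gm17336, had 9.71, 10.8 and 10.9 FPKM in ex vivo WT and 11.6, 16.0 and 10.3 FPKM in stimulated WT Treg, which overlapped (log2 fold change 0.26, SE 0.16, adjusted p = 0.18). Levels in Ikzf1-cko Treg went from 11.6, 11.5 and 9.79 to 15.8, 13.7 and 14.7 FPKM (log2 fold change 0.42, SE 0.13, adjusted p = 0.015). The interaction was 0.16 (adjusted p = 0.66), and with loess offsets the rise in WT Treg passed too, at 0.46 (adjusted p = 0.020). The region next to it, OCR_15853 (chr10:128083209-128083844, 0.5 kb upstream of the start), had the largest rise of the gene and is named after its values were seen. It went from 9.68, 9.37 and 6.22 to 13.3, 17 and 14.4 FPKM with stimulation in WT Treg (log2 fold change 0.85, SE 0.21, adjusted p = 0.0014). In Ikzf1-cko Treg it went from 9.52, 9.48 and 11.8 to 12.4, 14.6 and 18.4 FPKM (log2 fold change 0.58, SE 0.16, adjusted p = 0.0092), without overlap in either genotype. OCR_15849 (chr10:128063092-128064212), over the start of the ribosomal protein gene Rps26 downstream of Ikzf4, rose 1.40-fold with stimulation in WT and 1.31-fold in Ikzf1-cko Treg (adjusted p = 9.8e-04 and 0.0030). In all, 2 of the 7 tested Ikzf4 regions were higher and 2 lower with stimulation in WT Treg, against 26.9% and 20.7% of all, and 3 were higher and 2 lower in Ikzf1-cko Treg, against 12% and 11.5% of all. No Ikzf4 region passed between genotypes. The smallest p ex vivo was at OCR_15851 (chr10:128079859-128080142, intron 2), with 15.6, 25.7 and 24.2 FPKM in WT and 25.9, 30.7 and 30.7 FPKM in Ikzf1-cko Treg (log2 fold change 0.37, SE 0.17, adjusted p = 0.12). With loess offsets 1 region (OCR_15850) passed ex vivo as lower in Ikzf1-cko Treg, with TMM factors OCR_15851 passed as higher, and without stimulated WT replicate 2, OCR_15850 and OCR_15852 passed as higher after stimulation.

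Ikzf5 (mm9, chr7:138532166-138554035, minus strand, 21.9 kb) had 3 regions. The region over its start, OCR_104428 (chr7:138553360-138554452), which also covers the start of Acadsb, an acyl-CoA dehydrogenase gene, had 44.8 to 58.7 FPKM in all 12 libraries. Its levels were 51.6, 48.6 and 53.1 FPKM in ex vivo WT, 54.2, 57.1 and 57.8 in ex vivo Ikzf1-cko, 44.8, 53.7 and 48.5 in stimulated WT and 58.7, 52.9 and 54.7 in stimulated Ikzf1-cko Treg. Log2 fold changes ran from -0.06 to 0.18 and did not pass (smallest adjusted p = 0.064); with loess offsets the value between stimulated genotypes was -0.20 and that of stimulation in WT was 0.20 (adjusted p = 0.040 and 0.046). OCR_104426 (chr7:138514197-138515377), over the start of the downstream gene Pstk, was 1.20-fold higher in stimulated Ikzf1-cko than in stimulated WT Treg (log2 fold change 0.26, SE 0.10, adjusted p = 0.024), which with loess offsets was -0.04 (adjusted p = 0.77). With TMM factors 1 of the 3 Ikzf5 regions passed as higher in Ikzf1-cko Treg ex vivo and 2 after stimulation. After stimulation DESeq2 size factors gave 2 higher, whereas loess offsets gave 1 lower and 0 higher.

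OCR_104427 (chr7:138515431-138515734), 38.5 kb from the Ikzf5 start and within the annotated bodies of Pstk and Fgfr2, fell with stimulation in both genotypes. In WT Treg it had 18.4, 23.1 and 18.4 FPKM ex vivo and 8.70, 4.81 and 6.84 FPKM after stimulation, on 29 to 53 and 8 to 16 reads. This was a 2.91-fold fall (log2 fold change -1.54, SE 0.27, adjusted p = 4.3e-05). Ikzf1-cko Treg had 20.6, 17.9 and 14.1 FPKM ex vivo and 7.13, 8.37 and 8.89 FPKM after stimulation, a 2.15-fold fall (log2 fold change -1.11, SE 0.21, adjusted p = 2.8e-04). Ex vivo and stimulated libraries did not overlap in either genotype. The region entered the test only through ex vivo libraries, since the 6 that reached 3.6 CPM were all ex vivo. The responses were not shown to differ (0.44, SE 0.36, adjusted p = 0.47), and the genotypes did not pass ex vivo (-0.18, adjusted p = 0.52) or after stimulation (0.26, adjusted p = 0.50). The call in WT Treg held in 22 of 22 alternative fits that tested the region, whereas that in Ikzf1-cko Treg fell short on fold without ex vivo Ikzf1-cko replicate 1 (-0.97) and with limma (-0.86), and on p with thinned counts (adjusted p = 0.088).

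Without stimulated WT replicate 2, OCR_2479 and OCR_2517 were 1.08 and 1.38 higher on the log2 scale in stimulated Ikzf1-cko than in stimulated WT Treg (adjusted p = 7.3e-07 and 0.0018), and the interaction was 0.83 and 1.39 (adjusted p = 0.0022 and 0.030). Stimulation in WT Treg then gave -1.28 at OCR_2517, -1.08 at OCR_2513 and -1.34 at OCR_104427 (adjusted p = 0.0056, 0.0040 and 7.2e-04). The 6 Ikzf2 regions that were higher in both states had an adjusted p of 0.020 or less between stimulated genotypes, at 0.60 to 0.80, and OCR_2531 stood at 0.33 (adjusted p = 0.0083). Several values at the other genes crossed the threshold. The rises with stimulation in WT Treg at OCR_20234 (0.28, adjusted p = 0.068) and OCR_20255 (0.42, adjusted p = 0.069) no longer passed, nor did the difference between stimulated genotypes at OCR_104426 (0.21, adjusted p = 0.12). That difference passed at OCR_15850 (0.30, adjusted p = 0.032), OCR_15852 (0.42, adjusted p = 0.028) and OCR_104428 (0.25, adjusted p = 0.023), and the interaction at OCR_15850 did so as well (0.48, adjusted p = 0.029). The values of OCR_20233 between stimulated genotypes and of OCR_15853 with stimulation in WT Treg were -0.66 and 0.74 (adjusted p = 0.025 and 0.013).

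Summed over all its regions, each gene was compared as a whole, with no test because the regions were chosen by gene. Ikzf2 held 388, 422 and 449 CPM in ex vivo WT and 493, 504 and 437 in ex vivo Ikzf1-cko Treg. After stimulation it held 310, 395 and 328 in WT and 403, 434 and 422 in Ikzf1-cko Treg. The order of means was ex vivo Ikzf1-cko (478 ± 36.0), stimulated Ikzf1-cko (420 ± 15.4), ex vivo WT (419 ± 30.8) and stimulated WT (344 ± 44.7; SD, n = 3 each), in which neighbouring groups overlapped except for the first pair. Stimulated WT Treg were 1.22-fold below stimulated Ikzf1-cko Treg without overlap, although stimulated WT replicate 2 (395) lay close to the lowest stimulated Ikzf1-cko library (403).

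Sums at the other genes varied less. Ikzf3 held 201 ± 1.94 CPM in ex vivo WT, 203 ± 6.10 in ex vivo Ikzf1-cko, 219 ± 33.6 in stimulated WT and 205 ± 7.96 in stimulated Ikzf1-cko Treg, where 1 stimulated WT library, replicate 2, had 258 and the other libraries of that group 202 and 197. Ikzf4 held 131 ± 0.544, 129 ± 11, 121 ± 20.6 and 131 ± 2.70 in the same order of groups, with 145 in stimulated WT replicate 2, and all pairs of groups compared overlapped. Ikzf5 held 91.1 ± 2.52, 98.8 ± 2.51, 83.2 ± 2.23 and 96.2 ± 4.68, and both Ikzf1-cko groups were above their WT groups without overlap, by 1.08-fold ex vivo and 1.16-fold after stimulation. Per kilobase of region in ex vivo WT Treg, the levels were 14.3 FPKM at Ikzf2, 13.3 at Ikzf3, 20.6 at Ikzf4 and 35.4 at Ikzf5, whose 3 regions include the start shared with Acadsb and the start of Pstk.

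**Figure D4:**
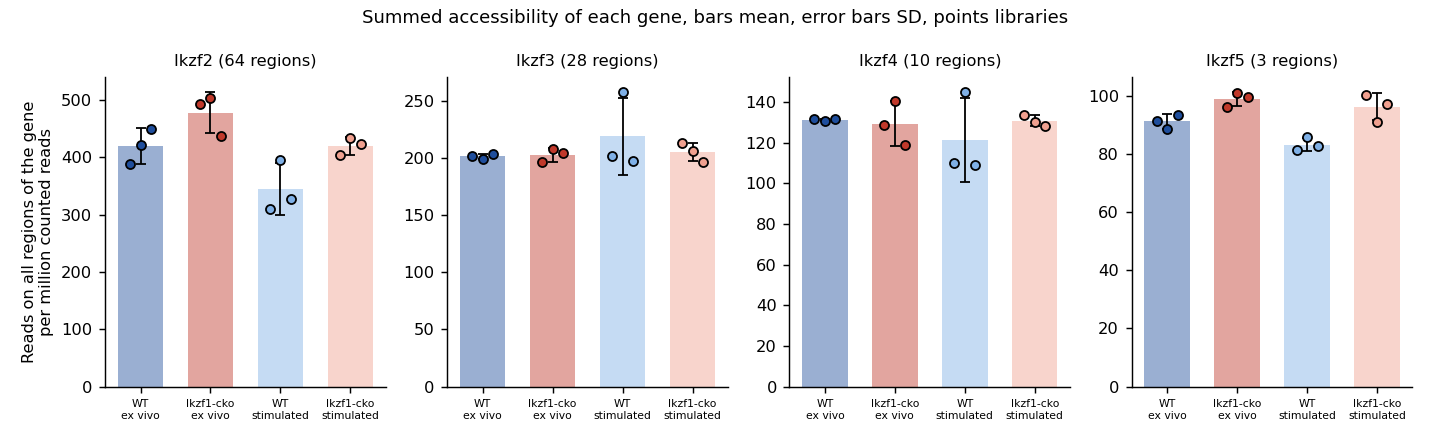
Summed accessibility of each gene in CPM (vertical axis from 0) in the 4 groups, with bars for the mean, error bars for the SD and points for the 3 libraries. Stimulated WT has the lowest mean at Ikzf2, Ikzf4 and Ikzf5 and the highest at Ikzf3, and its replicate 2 is the highest point of its group at all 4 genes.

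Motif letters were counted in the mm9 sequence of all regions, on both strands. At least 1 GGGAA was found in 68 of the 105 regions (64.8%), beside 69.5% of all regions of the same length classes. It was found in 37 of 64 Ikzf2 regions (57.8% beside 68.1%), 21 of 28 Ikzf3 regions (75.0% beside 68.9%), 8 of 10 Ikzf4 regions and 2 of 3 Ikzf5 regions. Matches to GGGAA at 2 or more places were in 16 Ikzf2 regions (25% beside 38.3%) and 12 Ikzf3 regions (42.9% beside 41.3%). The AP-1 motif TGANTCA was in 19 of 105 regions (18.1% beside 19.8%), and the forkhead motif GTAAACA in 4 (3.81% beside 6.24%). The Ikzf2 regions had a median GC content of 43.2%, against 50.0% over all regions and 49.5% at Ikzf3. Over their whole length OCR_2479 and OCR_2517 held 1 GGGAA each, and OCR_104427 held none of these motifs.

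Regions whose level followed that of a start region most closely over the 12 libraries were sought among the tested start regions of genes more than 1 Mb away. These likenesses are Pearson correlations of log2(CPM + 1) over the same 12 libraries, which share depth and group, and are given as a description. For the region nearest to the Ikzf2 start, the most alike were at Pskh1 (0.974), Foxj2 (0.965) and Chd7 (0.959) among 11718 regions, of which 70 exceeded 0.9. For Ikzf4 they were at Gipc1 (0.960), Akt2 (0.931) and Stat6 (0.919), and for Ikzf5 at Narf (0.950), Hist1h3c (0.950) and Rrm1 (0.939).

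Genes that work with Ikaros family proteins were examined at their start regions as a list of 18, of which 17 had a tested region (all but Gatad2b). The list held NuRD subunits (Chd4, Hdac1, Hdac2, Mta1, Mta2, Mta3, Mbd3, Gatad2a, Gatad2b, Rbbp4, Rbbp7), Sin3a, Sin3b, Ctbp1, Ctbp2, the remodelling ATPase gene Smarca4, Foxp3 and Crbn. Human CRBN is the substrate receptor through which lenalidomide directs Ikaros and Aiolos to degradation. Between genotypes 0 of 17 were called ex vivo, against 4.63% of all regions tested, and 1 after stimulation, against 21.3%. The latter was Ctbp2, with 10.2 ± 2.01 FPKM in WT and 5.10 ± 1.78 in Ikzf1-cko Treg (SD, n = 3; log2 fold change -1.01, adjusted p = 0.0030). Its region was weak, at 3.04 to 12.3 FPKM over the libraries, and the value was just past the fold threshold. Calls in this list were not examined in the alternative fits. With stimulation 2 of 17 were called in WT Treg, against 20% of all, and 0 of 17 in Ikzf1-cko Treg, against 3.65%. Those in WT Treg were Ctbp2 (log2 fold change 1.15, adjusted p = 0.0020) and Foxp3, from 6.70 ± 0.487 to 14.6 ± 0.726 FPKM (log2 fold change 1.11, adjusted p = 6.4e-05). At an adjusted p under 0.05 and any fold, 3 were higher and 0 lower in Ikzf1-cko Treg ex vivo (8.78% and 12.7% of all), and 4 higher and 1 lower after stimulation (20.4% and 30.7% of all). With stimulation 8 rose and 2 fell in WT Treg (26.9% and 20.7% of all), and 9 rose and 0 fell in Ikzf1-cko Treg (12% and 11.5% of all). Chd4, the NuRD ATPase, rose in both (log2 fold change 0.56 and 0.71, adjusted p = 8.6e-04 and 1.5e-05). At Foxp3 the ex vivo level was higher in Ikzf1-cko Treg, at 11.2 ± 0.656 FPKM (log2 fold change 0.73, adjusted p = 0.0051), and the interaction did not pass (-0.62, adjusted p = 0.12); no interaction passed among the 17 (edgeR, adjusted p).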

How the data were processed

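ATAC-seq was analysed in 12 libraries of spleen Treg, 3 in each of 4 groups of genotype and stimulation, grouped by the labels. Per the labels, reads were aligned to mm9 with Bowtie2 and peaks called with MACS2. The authors removed duplicates, merged peaks found in at least 2 replicates and deposited the read count of each region in each library as a raw count. The deposited FPKM scales that count to the length of the region and the total of the library, and a deposited log2 of FPKM was not used. A further table holds the authors' log2 fold changes, F, p and FDR for the regions they called, and was not used. Genes and sequences came from NCBIM37 (mm9) with GENCODE vM1.

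Counts were tested with edgeR 4.0.16 (quasi-likelihood test, library totals as the scale, all 12 libraries in 1 fit, a minimum of 3.6 CPM in 3 libraries, 69957 of 118680 regions), in R 4.3.3, with Benjamini-Hochberg adjustment. SE is the log2 fold change over the square root of F. Calls needed an adjusted p under 0.05 and a log2 fold change over 1 in size. The script was tested on simulated data. Alternatives were TMM, DESeq2 size factors, loess offsets, limma 3.58.1 on log2(CPM + 1), DESeq2 1.42.0, other filters and windows, thinned counts, a replicate block, the compared groups alone and leaving out each library. The text names the called regions, the regions over or nearest to starts, and for each gene and comparison the region of smallest p. The regions, lists and tests were chosen with earlier results of these data known. Depth was 4808916 to 15355521 counted reads per library. A few markers, likenesses and sequences are not reported here.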

Additional observations from a re-analysis of the deposited data

Results flagged for a closer look

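At 3 of the 75 tested regions the response to stimulation differed between genotypes by a test of that difference (edgeR's quasi-likelihood interaction term, adjusted p under 0.05). The shares in the family, 2.67% with a higher and 1.33% with a lower value, were below the 5.66% and 1.82% of all tested regions. The interaction was 0.88 on the log2 scale at OCR_2479 in intron 6 of Ikzf2 (adjusted p = 7.0e-04) and 1.32 at OCR_2517 in intron 3 of Ikzf2 (adjusted p = 0.025). At OCR_20233, downstream of Ikzf3 and in the body of Grb7, it was -0.96 (adjusted p = 0.032). Stimulated WT Treg were the lowest group at both Ikzf2 regions and had the highest mean at OCR_20233. The difference at OCR_20233 lost its adjusted p under 0.05 in 6 of the 12 fits that left out a library and with DESeq2, thinned counts, limma or no filter. That at OCR_2517 did so in 4 of the 12, with DESeq2 and with thinned counts, and rests on 7 to 12 reads per stimulated WT library.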

How the results depend on the processing

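The number of called regions was small and moved with several alternatives. Between genotypes ex vivo, 1 region was called, and 0 were with TMM factors, DESeq2 size factors, DESeq2, limma, a filter over all 12 libraries, thinned counts or gene bodies without extension. After stimulation, 2 became 1 with loess offsets, limma, the filter over all 12 libraries or the compared groups alone. With stimulation in WT, 3 became 1 with limma or the filter over all 12 libraries. With stimulation in Ikzf1-cko, 1 became 2 with loess offsets or no filter, and 0 with limma, the filter over all 12 libraries, thinned counts or no extension. The interaction count of 1 became 2 with TMM factors or loess offsets and 0 with DESeq2, limma, the filter over all 12 libraries or thinned counts. The filter over all 12 libraries removes OCR_2517, OCR_104427 and OCR_20231 by construction, and the fit of the compared groups alone does not test OCR_2517 after stimulation; otherwise the cause was not tested. Without the fold threshold the counts were 8, 17, 28, 23 and 3. Leaving out 1 library gave 0 to 2, 2 to 2, 2 to 6, 0 to 1 and 0 to 2 calls in the same order.

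Only loess offsets reversed a direction that passed a threshold. They gave -0.07 at OCR_2531, -0.14 at OCR_20256, -0.04 at OCR_104426 and -0.20 at OCR_104428 between stimulated genotypes, and 0.20 at OCR_104428 with stimulation in WT. Of 1353 alternative values of 61 results for named regions, 42 changed sign, all of results with a log2 fold change of at most 0.27 in size. The log2 ratios of summed reads that moved by more than the spread were, with TMM factors, 0.31 (Ikzf2), 0.13 (Ikzf3), 0.10 (Ikzf4) and 0.24 (Ikzf5) ex vivo, 0.28 for Ikzf5 after stimulation, and -0.05 (Ikzf3) and -0.10 (Ikzf5) for stimulation in Ikzf1-cko. Without extension they were -0.35 (Ikzf4) and -0.06 (Ikzf5) for stimulation in WT and -0.12 (Ikzf3) and -0.09 (Ikzf4) in Ikzf1-cko, and with 50 kb -0.03 and 0.06 for Ikzf5 in WT and Ikzf1-cko. With the replicate number as a block the counts of calls were 1, 2, 3, 1 and 1, as without it. Deviations of libraries that share a number correlated at -0.355 to 0.284, and those with different numbers at -0.377 to 0.402, and the numbers were not taken as pairs in the main fit. These ranges mix pairs within and across genotypes, so they cannot decide whether libraries of a genotype share sorts. With a block for each number within a genotype, 3 regions were called with stimulation in WT, 1 in Ikzf1-cko and 1 for the interaction, as in the main fit. The values of OCR_2517 and OCR_104427 rest on 7 to 12 and 8 to 16 reads per stimulated WT library.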
